A study of Mus musculus with 5 samples.

Results

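The ESC line #620-6, which carries the EGFP knock-in on both ECAT11 alleles (ECAT11EGFP/EGFP), was compared with the wild-type ESC line #620-2. These are 2 of the 5 lines of the study, and they form its matched pair: both are labelled female, both have the mixed C57BL6/129sv background, and their arrays lay on the same slide. Each line was measured on 1 array, so the comparison has no replicates, no test and no error between cultures. As a yardstick for how far sister lines differ, the same description was made for #757-2 against #757-1, a pair of male ECAT11EGFP/EGFP lines of the same mixed background on a second slide. The fifth line, RF8, is the male wild-type 129sv line in which the gene was targeted, and it is used here only to place the levels of the pair. ECAT11 is a gene of mouse ESCs and early embryos whose protein resembles the RNA-binding protein of the L1 retrotransposon. In the knock-in, a cassette with EGFP and a puromycin resistance gene stands in place of the coding region. The #620 and #757 lines were each derived from a blastocyst of a heterozygous intercross, so that a difference between genotypes and a difference between lines cannot be told apart. Before total RNA was isolated, all lines were grown with serum and LIF on gelatin, without feeder cells. ECAT11 itself is not analysed here.

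Mouse ESCs are taken from the inner cell mass of the blastocyst and are held in self-renewal by LIF and a network of transcription factors around Pou5f1, Sox2 and Nanog. In female ESCs both X chromosomes are active, and one of them is silenced when the cells differentiate. Many genes of the germ line are kept silent in other cells by DNA methylation of CG-rich promoters. Imprinted genes are read from the maternal or the paternal chromosome only, according to methylation marks set in the egg or the sperm, and those marks can be lost in cultured ESC lines.

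The levels given below are log2 intensities set to 0 at the 75th percentile of their own array, and a difference is #620-6 minus #620-2 on that log2 scale unless pair 757 (#757-2 minus #757-1) is named. Each array held 45018 spots and 41174 probes after controls were left out, and between 137 and 154 spots an array were set aside as outliers. No spot was saturated. A probe counts as measured on an array when the scanner software called it well above background, which held for 26490 probes in RF8, 26371 in #620-2 and 27144 in #620-6. On the slide of the #757 lines it held for fewer, 22061 and 21250. All 8 ESC markers examined, Pou5f1, Nanog, Sox2, Sall4, Tdgf1, Zfp42, Utf1 and Dppa5a, were measured in every line. Xist, the RNA that coats the silenced X chromosome, was measured in #620-2 (level -2.05) and #620-6 (-0.72) and in none of the male lines, whereas the Y-linked genes Ddx3y, Eif2s3y, Kdm5d and Uty were measured in the male lines and in neither #620 line. Zfy1, the remaining Y-linked gene examined, was measured faintly in all 5 lines.

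The knock-in and the wild-type sister line differed more widely than the yardstick pair did. Of the 27884 probes measured on at least 1 array of the pair, 1815 (6.51%) were more than 2-fold higher in #620-6 and 1380 (4.95%) more than 2-fold lower. In pair 757, 613 of 22567 probes (2.72%) were past 2-fold higher and 597 (2.65%) lower. Because the slides differed in background, both pairs were also set side by side over the 20655 probes measured on all 4 arrays. There, 1210 probes (5.86%) were past 2-fold in pair 620, 732 of them higher and 478 lower, against 362 (1.75%) in pair 757. The SD of the differences over these probes was 0.53 in pair 620 and 0.33 in pair 757. Counted as genes by their brightest probe, 1075 of 15075 genes (7.13%) were past 2-fold higher in #620-6 and 735 (4.88%) lower, while in pair 757 it was 325 of 12898 (2.52%) higher and 258 (2%) lower. RNA was taken from whole cultures, so fewer cells of a type and less RNA per cell cannot be told apart in any of these differences.

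The wider spread of pair 620 held at every signal strength. When the probes measured on all 4 arrays were split by mean level into 5 equal bins of 4131, 10.9% of the dimmest bin were past 2-fold in pair 620 and 4.12% in pair 757. In the middle bin the shares were 5.33% and 1.36%, and in the brightest they were 1.84% and 0.194%. Dim probes thus made up much of both counts, and the bright end separated the pairs most in relative terms. Repeated spots of a probe on the same array scattered far less than this, with a median SD between 0.0569 and 0.0663 over the measured probes printed 10 times on each of these 4 arrays, but that scatter says nothing of the spread between cultures.

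**Figure D1:**
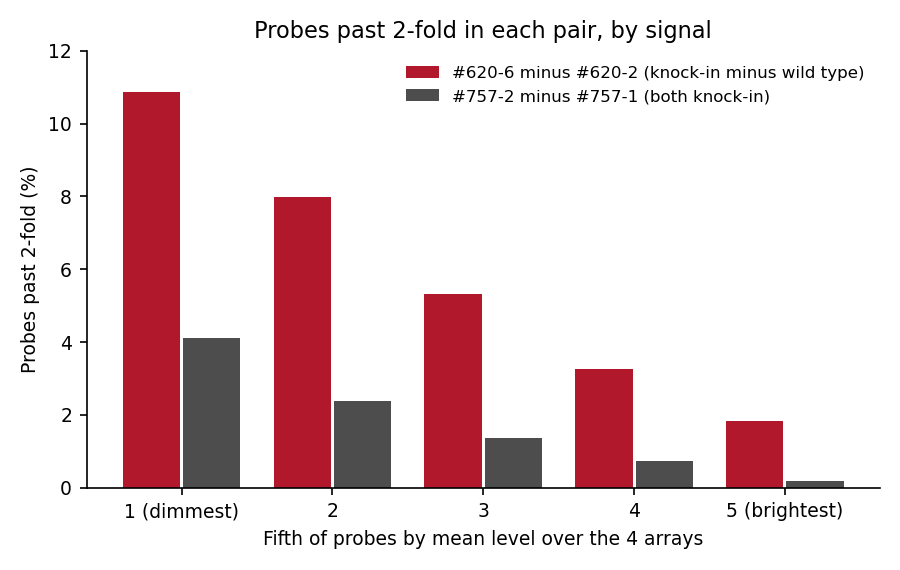
Percent of probes past 2-fold in either direction (vertical axis) in 5 equal bins of mean level (horizontal axis, dimmest to brightest) for #620-6 minus #620-2 (red) and #757-2 minus #757-1 (grey), over the 20655 probes measured on all 4 arrays. The red bars run from 10.9% down to 1.84% and the grey bars from 4.12% down to 0.194%, so that the red bar is the taller in each bin.

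Many genes were represented by more than 1 probe, which gave a check within the pair. Of the 1075 genes higher in #620-6, 252 had another measured probe, and in 185 of these at least 1 other probe was also past 2-fold higher. Of the 735 lower genes, 153 had another measured probe and in 95 of them at least 1 other probe was past 2-fold lower. A further limit concerns probes measured on only 1 array of the pair, since the level on the dim array is then background. Of the 1529 probes measured only in #620-6, 789 were past 2-fold by the plain difference but 306 by a lower bound, and of the 752 measured only in #620-2, 591 and 340. For such probes the fold is given below as "at least": the bright level against the higher of the dim level and the lowest level that any spot well above background had on the dim array.

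The X chromosome carried more than its share of the genes that were higher in the knock-in line. Of 548 X-linked genes measured in the pair, 105 (19.2%) were past 2-fold higher in #620-6 and 22 lower, and 53 were past 4-fold higher against 6 lower. On the autosomes 6.63% of genes were past 2-fold higher and 4.85% lower. In pair 757, which is male, 8 of 436 X-linked genes were higher and 8 lower. The skew was also seen in the bulk of X-linked probes: over those measured on both arrays, the median difference was 0.20 on the X chromosome (918 probes). The medians of the autosomes other than chromosome 11 ran from -0.11 to 0.14, with chromosome 18 at the top. Chromosome 11 had a median of 0.24, and it stood nearly as high in pair 757, at 0.23. Along the X chromosome the median was 0.30 in the first 40 Mb and 0.34 in the next, then 0.07 and 0.01, and -0.21 in the last step, which held 26 probes. Xist was 2.5-fold higher in #620-6 (difference 1.33), with 2 of its 3 other probes past 2-fold as well, and its antisense partner Tsix had levels of -1.43 in #620-2 and -2.69 in #620-6, a difference of -1.26 that was within 2-fold with normexp or with 64 added.

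**Figure D2:**
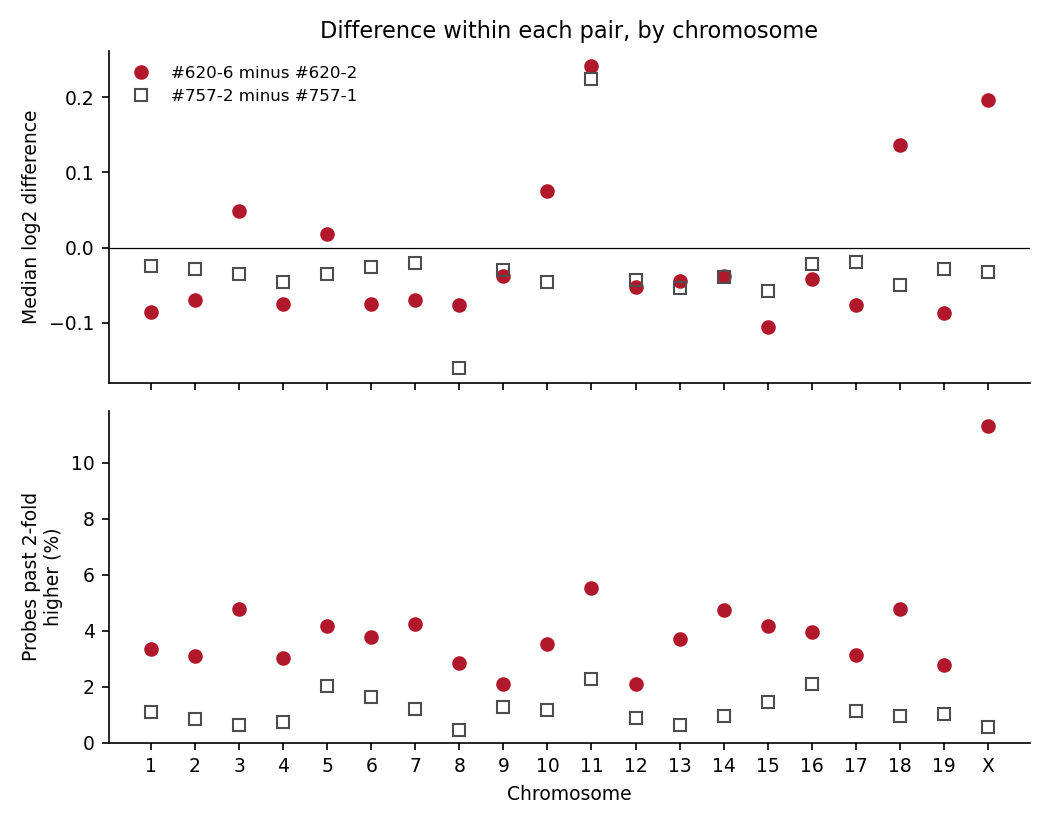
Median log2 difference (upper panel) and percent of probes past 2-fold higher (lower panel) for each chromosome, over probes measured on both arrays of the pair, for #620-6 minus #620-2 (red circles) and #757-2 minus #757-1 (open squares). On the X chromosome the red circle lies at 0.20 and 11.3% and the square at -0.03 and 0.564%, whereas on chromosome 11 both medians lie near 0.23.

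Gene families that are otherwise known from testis, placenta or tumours were among the largest X-linked differences. They fell into 3 groups: the Magea genes, the mouse members of the melanoma antigen family, the Rhox genes, a cluster of homeobox genes expressed in germ cells and placenta, and the Xlr genes, which encode nuclear proteins related to the synaptonemal complex protein Sycp3. All 6 Magea genes on the array, 7 of 7 measured Rhox genes and all 4 Xlr genes were past 2-fold higher in #620-6, against the 7.13% of all genes given above. The Magea genes passed the filter through #620-6 only. In pair 757 no Magea gene was measured, so that family has no yardstick there. Of the 6 Rhox and 4 Xlr genes measured in pair 757, 0 were past 2-fold higher. There 1 Xlr gene, Xlr5c, was lower (-2.02, or 1.0-fold by the bound). The families were picked after their values had been seen, so these counts describe the pair and test nothing. Members of a family are alike in sequence, and a probe may bind the RNA of more than 1 of them, so the values of single members are uncertain.

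The 250 bases before the annotated start of 6 of these and of the germline genes described next are shown here because they represent the contrasting promoter types among the genes that were higher in #620-6. They come from RefSeq on GRCm38.p6 and read 5′ to 3′ on the strand of the gene, with each CG dinucleotide in capitals.
Dazl (chr17:50293621-50293870, minus strand): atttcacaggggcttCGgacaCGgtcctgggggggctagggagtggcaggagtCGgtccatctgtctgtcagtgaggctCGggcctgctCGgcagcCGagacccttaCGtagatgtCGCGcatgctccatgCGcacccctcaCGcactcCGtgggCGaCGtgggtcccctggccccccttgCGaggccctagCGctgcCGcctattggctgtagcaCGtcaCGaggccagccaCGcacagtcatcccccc
Hormad1 (chr3:95559427-95559676, plus strand): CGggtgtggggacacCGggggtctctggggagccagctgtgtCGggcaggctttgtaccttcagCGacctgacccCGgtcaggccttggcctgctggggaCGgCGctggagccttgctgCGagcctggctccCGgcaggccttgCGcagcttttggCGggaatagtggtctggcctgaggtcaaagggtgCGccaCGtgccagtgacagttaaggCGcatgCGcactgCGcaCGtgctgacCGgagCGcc
Tex101 (chr7:24672051-24672300, minus strand): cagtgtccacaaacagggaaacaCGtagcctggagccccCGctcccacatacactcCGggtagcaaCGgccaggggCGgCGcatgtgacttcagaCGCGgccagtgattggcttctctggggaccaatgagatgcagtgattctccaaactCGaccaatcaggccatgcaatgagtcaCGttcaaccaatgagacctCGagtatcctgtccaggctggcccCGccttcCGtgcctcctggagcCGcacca
Rhox2a (chrX:37244742-37244991, plus strand): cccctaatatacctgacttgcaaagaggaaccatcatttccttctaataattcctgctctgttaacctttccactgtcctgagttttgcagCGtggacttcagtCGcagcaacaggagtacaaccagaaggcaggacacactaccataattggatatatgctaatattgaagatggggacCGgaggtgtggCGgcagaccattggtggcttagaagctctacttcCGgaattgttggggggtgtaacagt
Xlr4b (chrX:73214083-73214332, plus strand): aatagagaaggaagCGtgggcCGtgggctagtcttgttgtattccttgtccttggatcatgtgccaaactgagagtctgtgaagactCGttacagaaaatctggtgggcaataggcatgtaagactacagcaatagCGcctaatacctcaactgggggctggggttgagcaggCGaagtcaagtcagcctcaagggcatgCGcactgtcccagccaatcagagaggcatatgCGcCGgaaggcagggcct
Magea3 (chrX:154949570-154949819, minus strand): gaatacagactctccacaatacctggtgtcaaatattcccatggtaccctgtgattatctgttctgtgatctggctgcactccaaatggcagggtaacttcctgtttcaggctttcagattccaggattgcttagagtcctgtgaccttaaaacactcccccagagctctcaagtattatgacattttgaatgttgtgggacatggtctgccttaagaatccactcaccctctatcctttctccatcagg

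At the median, the promoters of the X-linked families held fewer CG dinucleotides than those of the germline genes. Dazl had 20 CG dinucleotides in this window, Hormad1 had 19 and Tex101 had 14, whereas Xlr4b had 8, Rhox2a had 5 and Magea3 had 0. Over all 32851 promoter windows in the table the median was 6, and 37.8% held 10 or more. Of the 15 members of the X-linked families with a window, 0 held 10 or more, and their median was 4. By family the median was 0 for Magea, 4 for Rhox and 5 for Xlr, so that the last 2 lay near that of all windows. Of the 9 germline genes that were higher, 8 matched the table and all 8 held 10 or more, with a median of 15. That share does not set them apart from the list they came from, since 9 of the 13 germline genes that were not higher also held 10 or more. The motif GCGGGAA or its reverse complement TTCCCGC, of the type bound by E2F6, was in 3.82% of all windows and in 1 of the 8 higher germline promoters, that of Hormad1. The E-box CACGTG was in 6.02% of all windows, in 3 of the 8 higher germline promoters and in 9 of the 13 others. Both motifs were searched on both strands, neither contains the other, and a match is a description of the sequence and not a bound site.

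The Magea genes were measured in #620-6 and in no other line. Magea3 had a level of -0.91 in #620-6 and lay between -7.22 and -6.27 on the other 4 arrays, where it was not well above background, which makes it at least 31.9-fold higher in #620-6 than in #620-2. Magea1 (-1.29 in #620-6) was at least 24.5-fold higher, Magea5 (-1.53) at least 20.9-fold, Magea8 (-1.64) at least 19.3-fold, Magea6 (-1.93) at least 15.8-fold and Magea4 (-4.16) at least 3.4-fold.

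Rhox2a showed the largest Rhox difference. It stood at -2.47 in RF8, -3.47 in #620-2 and 1.89 in #620-6, and at -0.92 and -0.08 in the #757 lines, so that #620-6 was the highest line and #620-2 the lowest, 40.9-fold apart (difference 5.35). Rhox13, which is read at meiosis, stood at 1.64 in #620-6 and between -0.87 and -0.14 in the other lines (difference 2.11). For other members the knock-in lines were alike. Rhox6 had levels of 1.08 in RF8 and 1.78 in #620-2 but 4.35, 4.47 and 4.91 in #620-6, #757-1 and #757-2, and Rhox9 and Rhox5 were arranged in the same way (differences 2.57, 2.48 and 2.27). Rhox4e (difference 2.52) was highest in #620-6, and Rhox3a was measured in #620-6 only, where it was at least 4.0-fold higher. Rhox11 was measured in neither line of the pair.

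Xlr3c, Xlr4b and Xlr5c stood apart in #620-6. Xlr3c had a level of 3.98 in #620-6 and lay between -0.14 and 0.28 in the other 4 lines (difference 4.12, 17.4-fold). Xlr4b lay at 4.75 against 0.41 to 0.95 elsewhere (difference 4.10), and its 2 other probes gave differences of 4.77 and 4.97. Xlr5c reached 1.61 in #620-6 and -2.80 in #620-2 (difference 4.41), was measured at -4.23 in #757-1, and was not well above background in RF8 or #757-2. Xlr itself had the smallest difference, 2.19. It stood at -1.44 in #620-6, and between -2.77 and -2.16 in RF8 and the #757 lines, and #620-2 was the lowest line (-3.63).

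Other X-linked genes were among the 10 with the largest positive differences over all genes measured in both lines. These were 1700013H16Rik, Gm5128, Efhc2, DXBay18 and Gm9, besides Rhox2a and Xlr5c, so that 7 of the 10 were X-linked. The X chromosome held 918 of the 25603 probes measured on both arrays. 1700013H16Rik had levels of -3.61 in #620-2 and 2.25 in #620-6 (difference 5.86, 58.1-fold), the largest of the set, and -4.04 in RF8. Gm5128 was 34.7-fold higher in #620-6 and Gm9 18.0-fold. For Efhc2, which encodes an EF-hand protein, the difference was 4.29 and a second probe gave 4.36. DXBay18 had a difference of 4.26 and a second probe at 3.96. In each of these 5 genes #620-6 was the highest of the lines.

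Several germline genes, most of them autosomal, were higher in #620-6 as well, while others were lower or within 2-fold. Of the 22 measured genes of the germline list, 9 were past 2-fold higher and 2 lower, or 8 and 2 when the lower bound was used, where 7.13% and 4.88% of all genes were. The median difference was 0.70, or 0.44 with the bounds, against -0.01 over all genes, and in pair 757 it was 0.41 over the 18 measured members, with 2 higher and 1 lower. With normexp background correction or with 64 added to the intensity, Piwil2, Sycp1, Dpep3 and Sycp3 were no longer past 2-fold, and with 64 added Asz1 was not. Dazl, an RNA-binding protein needed for germ cell development, had levels of -2.29 in RF8, -1.68 in #620-2, 0.97 in #620-6, -1.41 in #757-1 and -0.82 in #757-2. It was 6.3-fold higher in #620-6 than in #620-2, and its second probe gave a difference of 2.48. Hormad1, a protein of the meiotic chromosome axis, lay at 0.62 in #620-6 and between -1.91 and -1.47 in the other lines (difference 2.14, second probe 3.81).

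The germline genes that were higher act at several steps of germ cell life. Tex19.1, which holds retrotransposons in check in germ cells, was already bright in all lines, between 4.65 and 5.40, and reached 6.37 in #620-6 (difference 1.72). Asz1, a protein of the piRNA pathway that silences transposons, was measured in #620-6 only and was at least 5.7-fold higher. Piwil2, a Piwi protein of the same pathway, had a difference of 1.10, and Sycp1, the filament protein of the synaptonemal complex, 1.11. Taf7l, an X-linked transcription factor of spermatogenesis, had a difference of 1.34, with its second probe at the same value. Tex101, a surface protein of male germ cells, differed by 1.83, but here #757-2 (level -0.12) was as high as #620-6 (-0.11). Dpep3, a testis dipeptidase, was measured in #620-6 only and its bound was 1.1-fold.

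Other germline genes went the opposite way or stood still. Tdrd1, a Tudor protein of the piRNA pathway, had levels of -0.82 in #620-2 and -2.58 in #620-6 (difference -1.77), and the other 3 lines lay between -0.56 and 0.00. Sycp3, of the meiotic chromosome axis, differed by -1.01 and was as low in the #757 lines as in #620-6. Ddx4, the helicase that marks germ cells, differed by -0.97, short of 2-fold. Stra8, a gate to meiosis, had levels of 4.16 in #620-2 and 3.32 in #620-6 and was far lower, between -1.15 and 0.16, in the other lines, so that the lines of the pair stood together. Mael (-0.12) and Mov10l1 (0.11) hardly differed between #620-6 and #620-2. Tuba3a differed by 0.00 at its brightest probe and by 1.85 at its other, so that its probes disagreed.

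**Figure D3:**
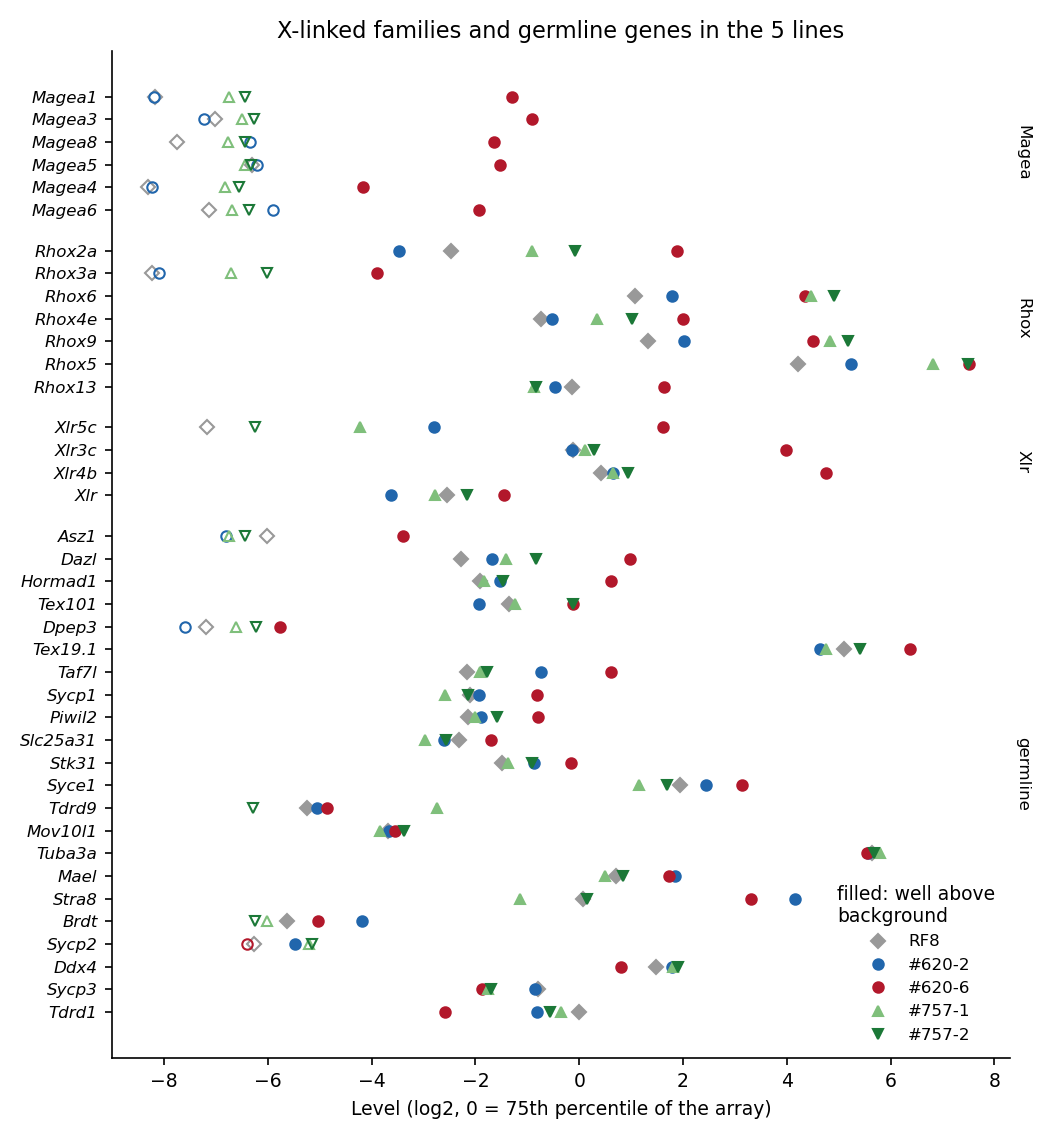
Level of each gene (horizontal axis, log2, 0 at the 75th percentile of the array) in the 5 lines, for the Magea, Rhox and Xlr families and the germline list. Filled symbols were well above background. The 6 Magea genes have a filled symbol in #620-6 only (red), Xlr3c and Xlr4b stand at 3.98 and 4.75 in #620-6 with the other lines near 0, and Dazl and Hormad1 are highest in #620-6.

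Imprinted genes differed in both directions, paternally read genes mostly upward and maternally read genes more often downward. Of 27 measured genes of the list, 6 were past 2-fold higher in #620-6 and 5 lower (4 by the lower bound), where 7.13% and 4.88% of all genes were, while in pair 757 it was 1 and 1 of 26. Among the 16 genes known to be read from the paternal allele, 5 were past 2-fold higher and 0 lower, 13 differences were above 0, and the median was 0.77. Among the 10 maternal genes 1 was higher and 5 lower, with a median of -0.63. The medians of the same genes in pair 757 were -0.16 and -0.38. The split by allele was made after the values had been seen, and Gnas (-0.49) was placed in neither group.

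The paternal genes past 2-fold were Plagl1, Airn, Zrsr1, Peg10 and Sgce, of which Airn and Peg10 were within 2-fold with normexp or with 64 added, and Sgce with normexp. Plagl1, a zinc-finger regulator of growth, had levels of -0.36 in RF8, -0.13 in #620-2, 1.79 in #620-6 and 0.15 in both #757 lines, a difference of 1.92 with #620-6 clear of the rest. Zrsr1, which encodes a splicing protein, stood at 2.42 in #620-6 and between 1.01 and 1.49 elsewhere (difference 1.32). Peg10, derived from a retrotransposon, and Sgce, which shares its promoter region, differed by 1.08 and 1.05, but RF8 was no lower than #620-6 for Sgce (2.16 and 1.97). Airn, the noncoding RNA that silences Igf2r in cis, was dim and differed by 1.44, and Igf2r itself had a level of 2.14 in both lines. Kcnq1ot1 (0.95), Impact (0.95), Mest (0.72), Usp29 (0.70) and Snrpn (0.61) lay on the same side without reaching 2-fold. Peg3 differed by 0.82 at its brightest probe, and its 2 other probes gave 0.84 and 3.18. Nnat (-0.86), Magel2 (-0.33) and Igf2 (-0.07) lay below 0.

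The maternal genes that were lower were Cdkn1c, Phlda2, Slc22a18, Grb10 and Zim1. Cdkn1c, an inhibitor of the cell cycle, had levels of 3.73 in RF8, 3.51 in #620-2, 2.06 in #620-6, 3.29 in #757-1 and 2.79 in #757-2 (difference -1.45). Phlda2, a restraint on placental growth, ran from 4.42 to 5.01 in 4 lines and was 3.11 in #620-6 (difference -1.41). Both genes and Slc22a18 (difference -1.85, second probe -0.42) belong to the cluster that Kcnq1ot1 silences on the paternal chromosome. Grb10, an adaptor that restrains growth signals, differed by -1.27 with its 2 other probes at -1.30 and -1.24, and #620-6 was the lowest line for it. Zim1 was measured in #620-2 and not in #620-6, and it was at least 1.6-fold lower in #620-6. The exception among maternal genes was H19, a noncoding RNA opposite to Igf2. It stood at -0.33 in RF8, 0.22 in #620-2 and 3.01 in #620-6, and at 1.43 and 1.93 in the #757 lines, so that it was 6.9-fold higher in #620-6, while Igf2 hardly differed. Meg3 (0.77, with 1 of 4 other probes past 2-fold), Rian (0.84) and Mirg (0.20), noncoding RNAs of the Dlk1 cluster, were within 2-fold.

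**Figure D4:**
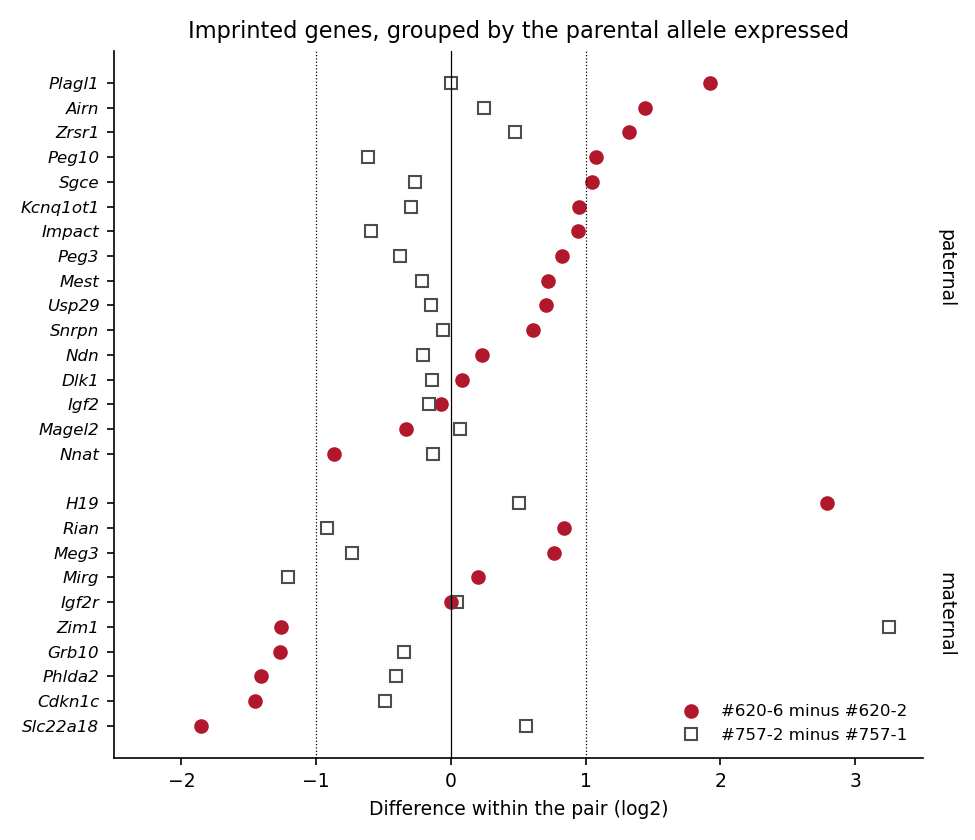
Log2 difference within the pair (horizontal axis) for the measured imprinted genes other than Gnas, grouped by the parental allele they are read from. Red circles are #620-6 minus #620-2 and open squares #757-2 minus #757-1. Dotted lines mark 2-fold. Of the red circles, 13 of 16 paternal genes lie above 0, and 5 of 10 maternal genes lie past 2-fold below it.

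Genes of the trophoblast, the outer lineage of the blastocyst, were mostly higher in #620-6. Of 15 measured, 7 were past 2-fold higher and 0 lower, where 7.13% and 4.88% of all genes were, 14 differences were above 0, and the median was 0.73 against 0.07 in pair 757, where none was past 2-fold. Gata3, a transcription factor that drives trophoblast fate, had levels of -2.06 in RF8, -2.43 in #620-2, 0.89 in #620-6, -0.43 in #757-1 and -0.63 in #757-2. The difference was 3.32, and #620-6 was the highest line. Hand1, needed for giant cells, lay at -1.55 in #620-6 and between -3.73 and -2.90 elsewhere (difference 2.18). Fgfr2, the receptor for the FGF signal that keeps trophoblast stem cells dividing, differed by 1.53 with 2 of 2 other probes past 2-fold. Here #620-2 was the lowest line (-1.905), and #620-6 (-0.37) lay below #757-1 (0.10) and #757-2 (0.01).

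The rest of the list was less uniform. Elf5 was measured in #620-6 and RF8 only and was at least 2.2-fold higher in #620-6, though within 2-fold with normexp or with 64 added. The keratins Krt7, Krt8 and Krt18, which line simple epithelia, differed by 1.40, 1.04 and 1.01, yet RF8 had higher levels than #620-6 of Krt8 and Krt18, so that #620-2 was the low line of the set. Cdx2, the other leading factor of the lineage, was dim in both and slightly lower in #620-6 (difference -0.53), Eomes differed by 0.23, and Tpbpa was not well above background in any line. Of the 4 trophoblast markers Cdx2, Elf5, Gata3 and Hand1, 3 were measured in #620-2 and 4 in #620-6. The log2 of their summed level was -1.65 in #620-2, 1.18 in #620-6, and between -1.20 and -0.14 in the other lines. That sum, taken before the log, mostly restates Gata3, since Hand1 (-1.55), Elf5 (-4.80) and Cdx2 (-4.94) were much dimmer in #620-6. The median level of the 4 was -4.06 in #620-2, -3.17 in #620-6 and between -4.02 and -3.45 in the other lines. Whether cells of that lineage were more frequent in the #620-6 culture was not tested.

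The transcripts of the 2-cell-like state, a rare and passing state of ESCs that reads genes of the 2-cell embryo, were also higher. Of 10 measured genes 5 were past 2-fold higher, 4 by the lower bound, and 0 lower, where 7.13% and 4.88% of all genes were. Zfp352 and Tdpoz1 were within 2-fold with 64 added, and Tdpoz1 also with normexp. The median difference was 1.07, and 0.47 over the 6 measured in pair 757, where none was past 2-fold. Zscan4c, a gene of that state, had levels of -0.25 in RF8, 0.67 in #620-2, 1.97 in #620-6, -1.36 in #757-1 and -0.83 in #757-2 (difference 1.30), with #620-6 the highest. Zfp352 differed by 2.26 and Tcstv1 by 2.13, and Usp17la differed by 1.20. Tcstv3 stopped short of 2-fold at its brightest probe (0.94) and passed it at its other (1.85), and Usp17lc (-0.63) and Sp110 (-0.16) lay on the other side. Zscan4 and Tcstv genes are families of near copies, so their single values are uncertain in the same way as those above.

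**Figure D5:**
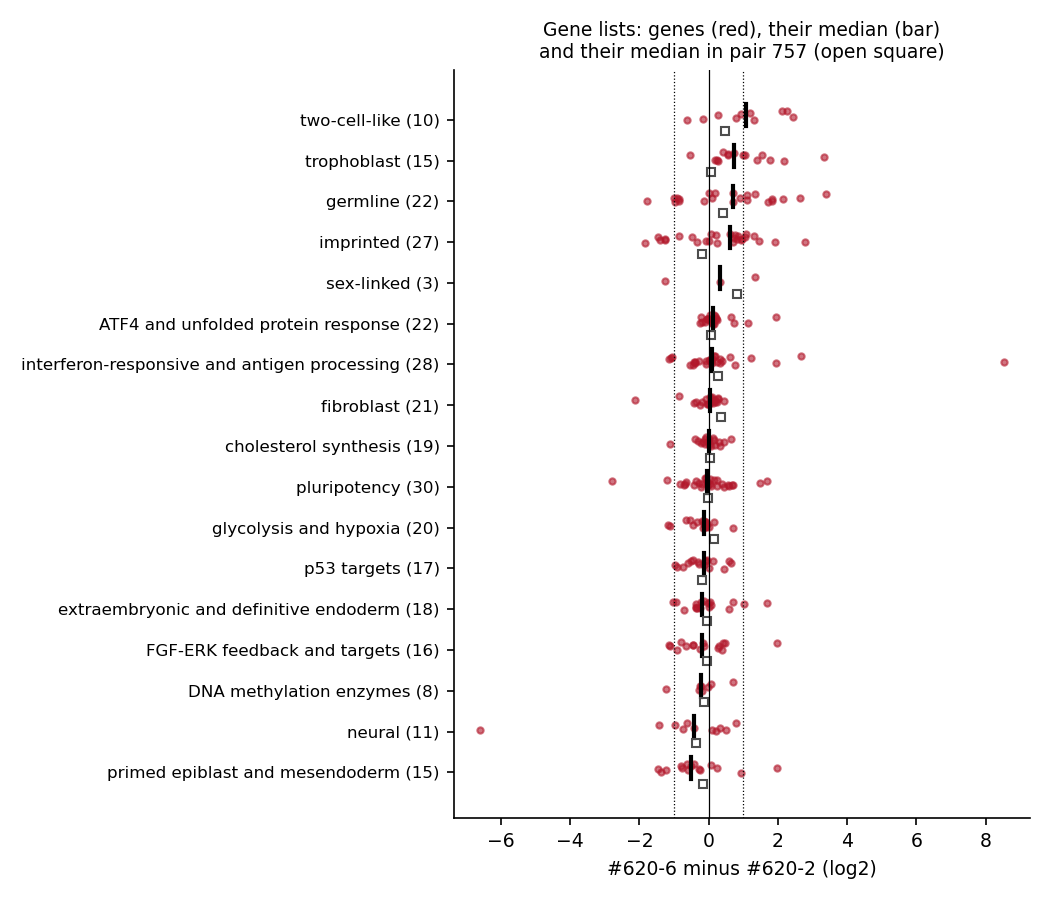
Differences of the measured genes of each list (red points, #620-6 minus #620-2, log2), the list's median (bar) and its median in pair 757 (open square). The number of measured genes is in brackets and dotted lines mark 2-fold. The medians of the 2-cell-like, trophoblast, germline and imprinted lists lie between 0.61 and 1.07. That of the neural list lies at -0.43 and that of the primed epiblast and mesendoderm list at -0.52.

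Olig1 and Olig2 had the largest negative differences. Olig2 and its neighbour Olig1, basic helix-loop-helix factors of oligodendrocytes and motor neurons, were well measured in #620-2 and near or not above background in #620-6. Olig1 had levels of -4.66 in RF8, 1.80 in #620-2, -4.72 in #620-6, 1.93 in #757-1 and 0.97 in #757-2 (difference -6.51, 91.3-fold). Olig2 stood at 0.23 in #620-2, was not well above background in #620-6 or RF8, and lay at 0.79 and -0.89 in the #757 lines, so that it was at least 88.2-fold lower in #620-6. The 2 genes thus split the lines without regard to genotype, since RF8 is wild type and the #757 lines are knock-in. Neurod1, a factor of neurons and endocrine cells, differed by -2.87 and was low in #620-6 only (-5.04, with the other lines between -2.62 and -2.17). Zic1 differed by -1.44 and its second probe by -1.69, but it was within 2-fold with normexp or with 64 added. Of 11 measured genes of the neural list, these 2 members, Olig2 and Zic1, were past 2-fold lower and 0 higher. Over all genes 4.88% were lower and 7.13% higher. In pair 757 the same 2 of 9 measured were past 2-fold lower, with a list median of -0.38. There Olig2 differed by -1.68 and Zic1 by -1.45, or -0.105 by the bound. The median of -0.43 in pair 620 turned to 0.21 over the genes measured on all 4 arrays. The rest lay within 2-fold in both directions, among them Nes (-0.73), Hes5 (-0.62), Sox1 (-0.43), Pax6 (0.21), Map2 (0.34) and Tubb3 (0.50). Fabp7 (-0.97) was not well above background in #620-6, and Nkx2-2 (0.79) not in #620-2.

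Other genes that were low in #620-6 were of mixed kinds, and for several #620-2 was the line that stood out. Prdm16, a regulator of brown fat, lay at 0.38 in #620-2 and between -4.93 and -4.30 in all other lines (difference -4.84). Casq2, the calcium store protein of heart muscle, and Dcx, a microtubule protein of migrating neurons (at least 17.6-fold), were likewise highest in #620-2. Myo7a, a myosin of inner-ear hair cells, differed by -3.07 and was highest in #620-2 too. Trim12a, of the tripartite motif family, stood at -1.15 in #620-2, 0.73 in #757-1 and 0.13 in #757-2 and was not well above background in #620-6 or RF8 (at least 33.9-fold, second probe -2.23). The olfactory receptor gene Olfr982 (-3.71) was low in #620-6 and not well above background in RF8 or #757-2. Olfr1339 (-3.55) was highest in #620-2 (-2.53), with the other lines between -6.74 and -4.70. Olfr460 was measured in #620-2 (-1.89) and RF8 (-1.56) only, at least 20.3-fold lower in #620-6. Adcy4, an adenylyl cyclase, differed by -2.68 but was within 2-fold with 64 added, and 1700072F12Rik, measured in #620-2 only, was at least 16.9-fold lower. The #620-6 levels of Casq2, Olfr982, Olfr1339 and Adcy4, between -6.08 and -5.93, were near the lowest level well above background on that array (-6.23).

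The autosomal genes among the 10 largest positive differences were Pramel7, Adgrg6 and Wdr95. Pramel7, a Prame-family gene of the inner cell mass, had levels of -3.23 in #620-2 and 1.27 in #620-6 (difference 4.49), and the other lines lay between -4.06 and -2.67. Adgrg6, an adhesion receptor needed for myelination, differed by 4.22. Wdr95 differed by 4.65, but its second probe differed by 0.22, so that the gene's probes disagreed.

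Ubd, which encodes the ubiquitin-like modifier FAT10, gave the largest positive bound among genes measured on 1 array of the pair. It was not well above background in RF8 and #620-2 and had levels of 0.46 in #620-6, 1.24 in #757-1 and 1.05 in #757-2, which makes it at least 82.5-fold higher in #620-6. The interferon-responsive list to which it belongs did not shift with it as a whole. Of 28 measured genes, 4 were higher, Ubd among them, and 3 lower, where 7.13% and 4.88% of all genes were. The median was 0.10. The others higher were Oas1a (2.66), Cxcl10 (1.22) and Rsad2 (at least 2.9-fold), and those lower were the proteasome subunits Psmb9 (-1.13) and Psmb8 (-1.06) and the peptide transporter Tap1 (-1.09), which serve antigen presentation. Of these 6, Cxcl10, Rsad2, Psmb8 and Tap1 were within 2-fold with normexp or with 64 added. Irf1 (0.33) and Isg15 (0.18) were within 2-fold. The Oas1 genes, encoding oligoadenylate synthetases and their relatives, were higher as a family: 6 of 7 measured were past 2-fold higher in pair 620 (5 by the lower bound), where 7.13% of all genes were, and 4 of 6 in pair 757, where 2.52% were. Oas1h was measured in #620-6 only, and its bound was 1.0-fold. As for Magea, the members are near copies and the family was picked after its values had been seen.

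The pluripotency genes showed no shift as a list. All 30 on the array were measured, and 2 were past 2-fold higher and 2 lower, where 7.13% and 4.88% of all genes were. Calls were thus about as frequent as over all genes, and the median was -0.03, against -0.02 in pair 757. Pou5f1 differed by -0.18, Sox2 by -0.04, Nanog by 0.58, Esrrb by -0.09, Tfcp2l1 by 0.23 and Dppa5a by -0.04. Sox2 lay between 4.13 and 4.66 in the 5 lines, while Nanog ran from 2.53 in RF8 to 4.53 in #620-6. Klf4, which also serves reprogramming, differed by -0.73, and Klf2 by 0.66. Dppa3, which shields the maternal genome from demethylation, lay at 2.02 in #620-2 and 3.70 in #620-6 (difference 1.68), and the other lines lay between 3.44 and 4.79, so that #620-2 was the low line. Fbxo15, a classic ESC marker, was arranged in the same way (difference 1.48). Gbx2, a LIF target, was highest in #620-2 (2.55, difference -1.20).

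Zfp42, known as Rex1 and a marker of undifferentiated ESCs, was the fourth of them. It stood at 7.0 in RF8, 6.79 in #620-2, 4.0 in #620-6, 6.55 in #757-1 and 3.87 in #757-2, and its second probe differed by -4.65 in pair 620. The low lines were thus #620-6 and #757-2, 1 of each pair, and the differences of -2.79 and -2.68 in the pairs were alike. The genotype does not divide them, as #757-1 carries the same knock-in and lay near the wild-type lines.

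Genes of a joint list of the primed epiblast, the stage that follows the naive one, and of mesendoderm were mostly lower in #620-6. Most stayed within 2-fold. Of 15 measured, 3 were lower and 1 was higher, where 4.88% and 7.13% of all genes were. Of the differences 4 were above 0, and the median was -0.52 against -0.16 in pair 757. Pou3f1, a POU factor of that stage, had levels of 6.07 in RF8, 5.33 in #620-2, 3.94 in #620-6, 5.45 in #757-1 and 5.61 in #757-2 (difference -1.39), with #620-6 the lowest. Dnmt3a, which sets new DNA methylation, lay at 1.85 in #620-6 and between 2.92 and 3.51 elsewhere (difference -1.23), and 1 of its 2 other probes was past 2-fold lower. T, the mesoderm factor brachyury, was dim and differed by -1.48. Evx1, a homeobox gene of the primitive streak, was the exception at 1.98, and both T and Evx1 were within 2-fold with normexp or with 64 added. The other DNA methylation enzymes were within 2-fold: Dnmt1 (-0.24), Dnmt3b (-0.27), Uhrf1 (-0.02), Tet1 (-0.20) and Tet2 (-0.22), and Dnmt3l, the cofactor, was at 0.71.

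Among the feedback regulators and targets of FGF-ERK signalling, 1 of 16 measured genes was higher and 2 were lower. Over all genes 7.13% and 4.88% were, and the median of the list was -0.19. Spry2, an inhibitor of the pathway, differed by -1.12, though its second probe gave 0.52, and the ETS factor Etv4 by -1.14. Dusp6 (-0.81), Spry4 (-0.91, second probe -1.21) and Spry1 (-0.64) lay on the same side short of 2-fold at their brightest probes, and Egr1 (0.48) and Fos (0.30) on the other. The gene that was higher was the X-linked Klhl13, an adaptor of a ubiquitin ligase, with a level of 3.33 in #620-2 and 5.30 in #620-6 (difference 1.97) and 3 of 3 other probes past 2-fold. RF8 lay at 3.46, near #620-2, and the #757 lines at 4.51 and 4.77. The X-linked phosphatase Dusp9 differed by 0.39.

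Markers of fibroblasts and of primitive endoderm had similar summed levels in both lines. The 8 fibroblast markers were all measured in both lines, with a log2 summed level of 3.19 in #620-2 and 3.1 in #620-6, against 3.94 in RF8 and 1.19 and 2.17 in the #757 lines. Of 21 fibroblast genes measured, 1 was past 2-fold, Lum (-2.13), where 7.13% of all genes were higher and 4.88% lower. S100a4 lay at 5.61 and 5.70 in the pair. The 6 primitive endoderm markers were measured in both lines as well, with a log2 summed level of 0.55 in #620-2 and 0.37 in #620-6. Of 18 endoderm genes measured, Afp (1.69) and Sparc (1.03) were higher and Cubn (-1.03) lower, against the same shares over all genes. Afp and Cubn were within 2-fold with normexp or with 64 added, as Lum was. Gata4 (-0.03) and Sox17 (-0.35) were within 2-fold. Pdgfra differed by 0.04 at its brightest probe but by -3.55 at its other, so that its probes disagreed.

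Genes of metabolism and stress were looked at beside all genes, of which 7.13% were past 2-fold higher and 4.88% lower. The counts that follow do not set such small lists apart from those shares. Of 20 genes of glycolysis and hypoxia, Pdk1 (-1.16, second probe -1.21) and Ankrd37 (-1.12) were lower. None of 17 p53 targets passed 2-fold in either direction, with Cdkn1a at 0.12 and Mdm2 at -0.05. Of 22 genes of the ATF4 and unfolded protein responses, Xbp1 (1.15) was higher, and Slc7a11, whose brightest probe was measured in #620-6 only, had a bound of 1.5-fold there but a difference of -1.98 at its other probe.

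The neighbours of ECAT11 on chromosome 4 were looked at because the knock-in alters that locus. All 10 were measured. Kank4 (1.24, second probe 1.28) and Efcab7 (1.53) were past 2-fold higher. Atg4c (-1.87), a protease of autophagy, was lower with 2 of 2 other probes past 2-fold. Over all genes 7.13% were past 2-fold higher and 4.88% lower, and counts among 10 genes are too small to mark out the locus. Usp1 (-0.05), Foxd3 (0.05), Alg6 (0.06) and Tm2d1 (0.14) were close in both lines. For Efcab7 the low line was #620-2, at -1.70 against -0.17 to 0.55 in the rest, RF8 included, and for Atg4c #620-2 was the highest line, at -0.89 against -2.76 to -1.87. None of the 10 was past 2-fold in pair 757.

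Some of the differences of pair 620 were shared by the pair of like genotype. Over the probes measured on all 4 arrays, 76 were past 2-fold higher in both pairs, 10.4% of the 732 higher in pair 620 and 31.0% of the 245 in pair 757. Lower in both were 20 probes, 4.18% of 478 and 17.1% of 117, while 14 and 18 went in opposite directions. Over all these probes, 1.19% were past 2-fold higher in pair 757 and 0.566% lower. The 14 that were higher in pair 620 and lower in pair 757 made up 1.91% of the 732 and 11.97% of the 117, so that opposite overlaps also exceeded the shares over all probes. The pairs share no array. The choice of which #757 line to subtract is arbitrary, so that the direction has meaning only from gene to gene. By brightest probe, 53 genes were higher in both pairs, 9 of them on chromosome 11. That chromosome held 2061 of the 25603 probes measured on both arrays of pair 620. Lower in both were 11 genes, 8 of them on chromosome 8, where 5.40% of the 12110 genes measured lie.

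The genes shared by both pairs varied between lines of 1 genotype, and the largest were seen in bright genes too. Kbtbd11, a Kelch protein, had levels of 1.40 in RF8, 0.17 in #620-2, -4.78 in #620-6, 0.81 in #757-1 and -3.80 in #757-2 (differences -4.95 and -4.61). Like Zfp42 it lies on chromosome 8, as do Vat1l (-1.59 and -1.70), Ocel1 (-1.46 and -1.53) and Klhl26 (-1.66 and -1.32). In all 5 genes #620-6 and #757-2 were the low lines. Among those higher in both pairs, Cbr1, a carbonyl reductase, lay at 0.27 in #620-2 and 0.00 in #757-1 but at 2.75, 2.59 and 3.60 in #620-6, #757-2 and RF8. St8sia5, a sialyltransferase, differed by 2.51 and 2.23, Hormad2, of the meiotic chromosome axis, by 2.16 and 1.96, Oas1d by 2.81 and 1.83, and Lonrf1 by 2.02 and 1.72.

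Set against RF8 and the #757 lines, the differences of the pair came from both of its lines. Of the 1812 probes past 2-fold higher in #620-6 with a value in all lines, #620-6 alone lay above the range of those 3 lines in 647 and #620-2 alone lay below it in 334. Both lay outside in 667 and neither in 164. Of the 1373 lower probes, #620-6 alone was outside in 354, #620-2 alone in 297, both in 632 and neither in 90. These counts take in levels not well above background, which differ between the slides, so that a line may lie outside by background alone. Over the probes measured on all 5 arrays, #620-6 alone was outside in 224 of 722 higher and 166 of 477 lower probes. There #620-2 alone was outside in 177 and 60, both lines in 276 and 236, and neither in 45 and 15.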

How the data were processed

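RNA from each of 5 mouse ESC lines, labelled with Cy3, was hybridized by the authors to its own 1-colour Agilent array. The authors deposited spot intensities from Feature Extraction 9.5.3.1, background-corrected and not normalized between arrays, and their own processed log2 values, centred probe by probe, which followed the scanner values with a slope of 0.9999 over 20622 probes. The file headers and the methods name different scanner models. From the deposited intensities, control spots and outlier spots were removed, the 75th percentile of each array was set to 0 on the log2 scale, and spots of a probe were averaged. Of the 41174 probes, 32719 were named through a RefSeq gene table (GRCm38.p6, used for names only, since the probes were placed on mm7), giving 19505 genes, and 8455 kept the name in the files. Gene counts are over genes matched in that table, by the probe brightest over 5 arrays.

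A pair was described over probes well above background on at least 1 of its arrays, with the methods' threshold of 2-fold. With 1 array a line there is no replicate, and so no test or p-value, and the number of arrays limits the precision. Named genes were the 10 with the largest difference each way among those measured in both lines, the 5 with the largest bound each way among those measured in 1, members of the 17 lists past 2-fold and the pluripotency list, the 5 largest each way shared by both pairs, Ubd and Zfp42. Other list members are named to show the rest of a list, and the Magea, Rhox, Xlr and Oas1 families and the split of imprinted genes by allele were chosen after their values were seen. The pair, the lists and the rules were chosen with earlier results of these data known. Some members of the lists are not reported here. Promoters were read from a RefSeq table. The counting code was tested on simulated data. Alternatives were normexp, quantile, loess and median scaling (limma 3.58.1, R 4.3.3), the authors' table, a pseudocount of 64, other thresholds and filters. Python 3.11.15, pandas 2.3.3, numpy 2.4.6 and matplotlib 3.10.9 were used.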

Additional observations from a re-analysis of the deposited data

How the results depend on the processing

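The count of probes past 2-fold in pair 620, 3195, moved with the threshold (6635 at 1.5-fold, 1073 at 4-fold), with settings that damp dim probes (922 with normexp background correction, 891 with 64 added to the intensity) and with the filter (1815 measured on both arrays, 1210 on all 4). The count of probes past 2-fold in pair 757 moved from 1210 to 2490, 555, 451, 423, 379 and 362 in the same order, and to 2550 with no filter. The number of probes past 2-fold in both pairs in the same direction, 96, became 35 with normexp, 35 with 64 added and 480 with no filter. Quantile, loess and median scaling, the authors' table and outlier spots kept left these counts within 1.5 times, as did, for each pair, the lower bound for probes measured on 1 array, chosen after seeing the data (2461 and 811). In every setting a larger percent of probes was past 2-fold in pair 620, for example 3.31% against 2.00% with normexp. No named gene past 2-fold changed sign, but the median of the neural list turned from -0.43 to 0.21 over probes measured on all 4 arrays, and that of the 3 sex-linked genes from 0.32 to -0.29 with no filter, where more genes enter. Of 100 named genes past 2-fold, 77 remained so with normexp and 75 with 64 added, and 97 or more under the other scalings and the authors' table. Krt18 was lost under quantile, loess and median scaling and in the authors' table. The medians of the trophoblast (0.39) and 2-cell-like (0.57) lists were smaller with 64 added. No paired analysis was possible because each line has 1 array and the lines carry no shared replicate numbers.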
